A study of Mus musculus with 46 samples.

Results

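Gene expression was compared between mouse pancreatic islets labelled Clec16a KO and their labelled controls on the diet that the labels call HFD. The comparison holds 11 of the 46 libraries of the series, chosen by their labels alone: 5 labelled KO (replicates 1 to 5) and 6 labelled control (replicates 1 to 6). The other 8 Clec16a islet libraries, 4 labelled KO and 4 control on the diet called RFD, entered the statistical fit and are given beside the HFD values. All 19 are described as biological replicates, and the islets were cultured overnight before total RNA was isolated, DNase treated and sequenced. The labels give the genotype only as Clec KO or Clec control. The allele, the driver of any deletion, the cells it reaches, the strain, the age and the content of either diet are not given in the sources used here.

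Clec16a encodes a membrane-associated protein of the endolysosomal system that works with the ubiquitin ligase Rnf41 (Nrdp1) and the deubiquitinase Usp8 to tune Parkin, and so the removal of damaged mitochondria by autophagy (mitophagy). Beta cells depend on mitochondrial ATP to couple glucose to insulin release. When mitochondria are damaged, signals can pass back to the nucleus (retrograde signalling), of which the integrated stress response (ISR) is the best described: kinases phosphorylate the initiation factor eIF2, general translation falls, and the transcription factor ATF4 drives genes of amino acid supply and of secreted stress peptides. The title of the series asks how such signals bear on the identity and maturity of metabolic tissues.

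The targeted gene came first, since it checks the labels. Clec16a (ENSMUSG00000068663, chromosome 16, 10545339 to 10744878, plus strand, GRCm38) stood at 21.4, 27.3 and 31.8 CPM (lowest, median and highest) in the 6 control libraries. The labelled-KO libraries 1 to 5 held 28.6, 27.6, 27.8, 23.6 and 32.9 CPM. Labelled KO 1 to 4 lay inside the control range and 5 just above it. The log2 fold change was 0.08 (SE 0.11, adjusted p 0.740) by edgeR's quasi-likelihood test, the source of every adjusted p below, with Benjamini-Hochberg adjustment over all genes tested. Counts summed over the whole gene do not show which exons were read, so a deletion of part of the gene would not have to appear in them. Since the RNA does not bear the genotype out, libraries are called labelled KO throughout.

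Total counts ran from 16235173 to 44399128 per HFD library. Transcripts of the insulin genes made up 13.4% to 28.1% of all counts, and glucagon, somatostatin and pancreatic polypeptide RNA was present in all 11. The Y-linked gene Ddx3y had 0 counts in all 19 libraries, although the design text names both sexes. CPM here are counts relative to library sizes scaled by TMM, and "called" means that the adjusted p did not exceed 0.05.

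The library labelled KO replicate 4 stood apart from the other 4 labelled-KO libraries. On the first principal component of log2 CPM, which held 33% of the variance, it lay at -22.9, inside the control range of -49.8 to -15.6, while the others lay between 42.7 and 56.8. Over the 3369 genes called without it, its median position was -1.4% of the way from the control mean to the mean of the other labelled-KO libraries. It lay within the control range for 2327 of those genes (69.1%). For 506 genes (15%) it lay beyond all 6 controls on the side of the other labelled-KO libraries, and for 536 (15.9%) beyond them on the opposite side. Over all 17254 genes tested, it lay beyond the controls in the direction of the fit without it for 2183. The 506 genes are therefore not read as a set that followed the label. Several genes for which it went with the other labelled-KO libraries are named below, picked by rules that its own values entered. List counts are given with and without it, and its own value is printed for the genes described most fully. Of the 169 single genes that were called with all libraries and recomputed, all but Npy were also called without it.

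**Figure D1:**
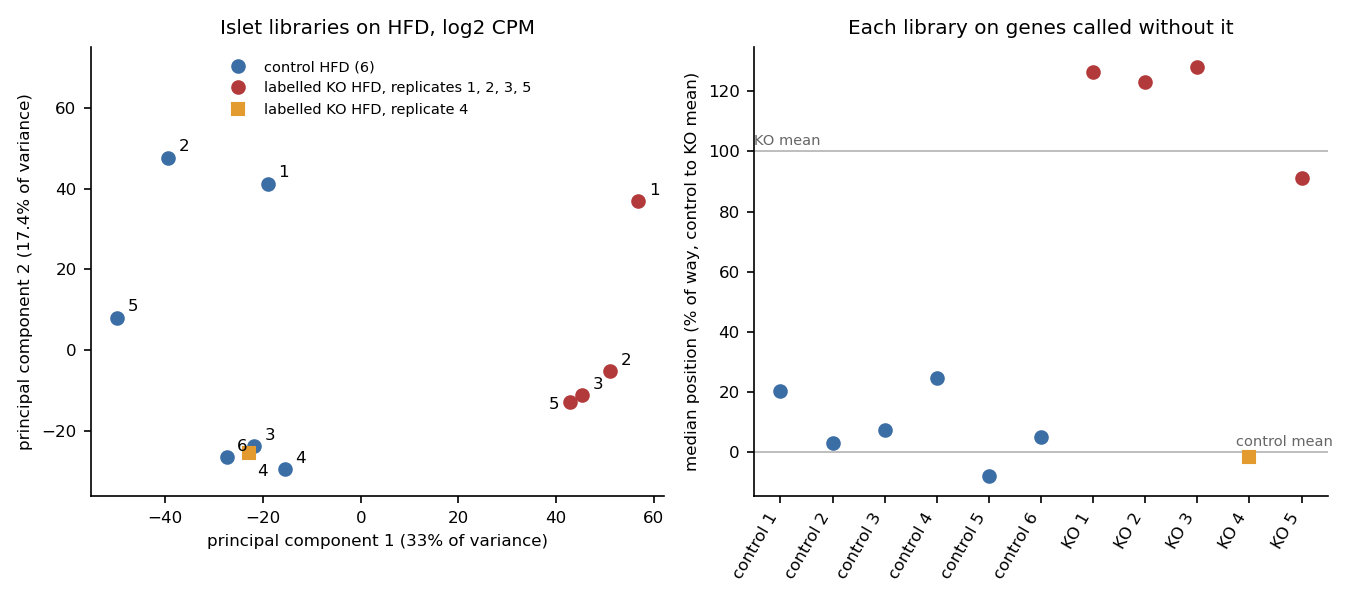
Left, the 11 HFD islet libraries on the first 2 principal components of log2 CPM, with numbers giving the replicate. Right, the median position of each library between the control mean (0%) and the labelled-KO mean (100%), over the genes called in the fit without that library. Labelled KO replicate 4 (orange square, -1.4%) sits among the controls (-7.7% to 24.7%), while the other labelled-KO libraries lie at 91.0% or above. Values over 100% arise because the mean of the remaining labelled-KO libraries includes replicate 4.

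Over the 11 libraries, 17254 genes could be tested. The calls came to 1652 genes (9.57%): 970 (5.62%) were higher in the labelled-KO islets and 682 (3.95%) lower, and 502 (2.91%) differed at least 2-fold. Without labelled KO replicate 4 there were 3369 calls among 16860 genes (20%), of which 1763 (10.5%) were higher and 1606 (9.53%) lower, with 854 (5.07%) differing at least 2-fold. Of the genes tested in both fits, 958 of the 964 called higher and 672 of the 681 called lower with all libraries were also called without replicate 4. Fewer genes were called when another labelled-KO library was left out: 873 without replicate 1, 826 without 2 and 786 without 3. Leaving out control 5 gave 1049. The median log2 fold change of all genes tested was near 0 in both fits, so the list medians below are read against 0. List counts are read against the shares of all genes called, 5.62% higher and 3.95% lower, or 10.5% and 9.53% without replicate 4. Markers of endothelial and fibroblast cells were also higher in labelled KO 1, 2, 3 and 5, with values given near the end, and their part in the changes described here was not tested.

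Several of the largest increases were in genes nearly silent in control islets. Bcat1, the cytosolic branched-chain aminotransferase, stood at 0.0267, 0.0766 and 0.306 CPM in controls (lowest, median, highest), or 1 to 9 raw counts per library. The labelled-KO libraries 1 to 5 held 41.2, 30.8, 30.5, 0.262 and 18.9 CPM. All but replicate 4 lay far above every control, and the fitted log2 fold change was 7.61 (SE 0.88, adjusted p 1.12e-04), or 7.94 (adjusted p 2.26e-09) without replicate 4. Slc7a3, a carrier of cationic amino acids, was at 0.663, 0.859 and 1.13 CPM in controls and at 44.5, 48.1, 46.0, 0.969 and 47.0 CPM in labelled KO 1 to 5, a fold change of 5.41 (SE 0.59, adjusted p 1.05e-04) on the log2 scale. The other 4 labelled-KO values of Slc7a3 differed by little from each other, whereas replicate 4 was at the control level.

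Further genes of that size were Mc5r, a melanocortin receptor, at 5.11 on the log2 scale, and Gm2115 at 5.33. Olfr330, an olfactory receptor whose reads could be shared with close relatives, was at 4.57. For Gm2115 all 5 labelled-KO libraries lay above every control, but replicate 4 held only 3.35 CPM against 2.82 in the highest control. Labelled KO 1, 2, 3 and 5 held 66.9 to 115 CPM of it. Hrk, a proapoptotic BH3-only gene, had 0 to 7 counts in controls, 82 to 231 in labelled KO 1, 2, 3 and 5, and 0 in replicate 4. Where controls hold so few counts, the size of a fitted fold change depends on the prior count and only its direction and the counts should be read. Per length, the mean level over all 5 labelled-KO libraries was 73.5 TPM for Serpina7 (thyroxine-binding globulin), 58.0 for Aldh1a3, 52.9 for Areg, 23.7 for Slc7a3, 12.2 for Gdf15, 6.30 for Bcat1 and 1.16 for Slc7a11. The control means of these 7 genes were 9.14, 0.800, 0.395, 0.475, 0.420, 0.0282 and 0.0426 TPM in the same order.

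**Figure D2:**
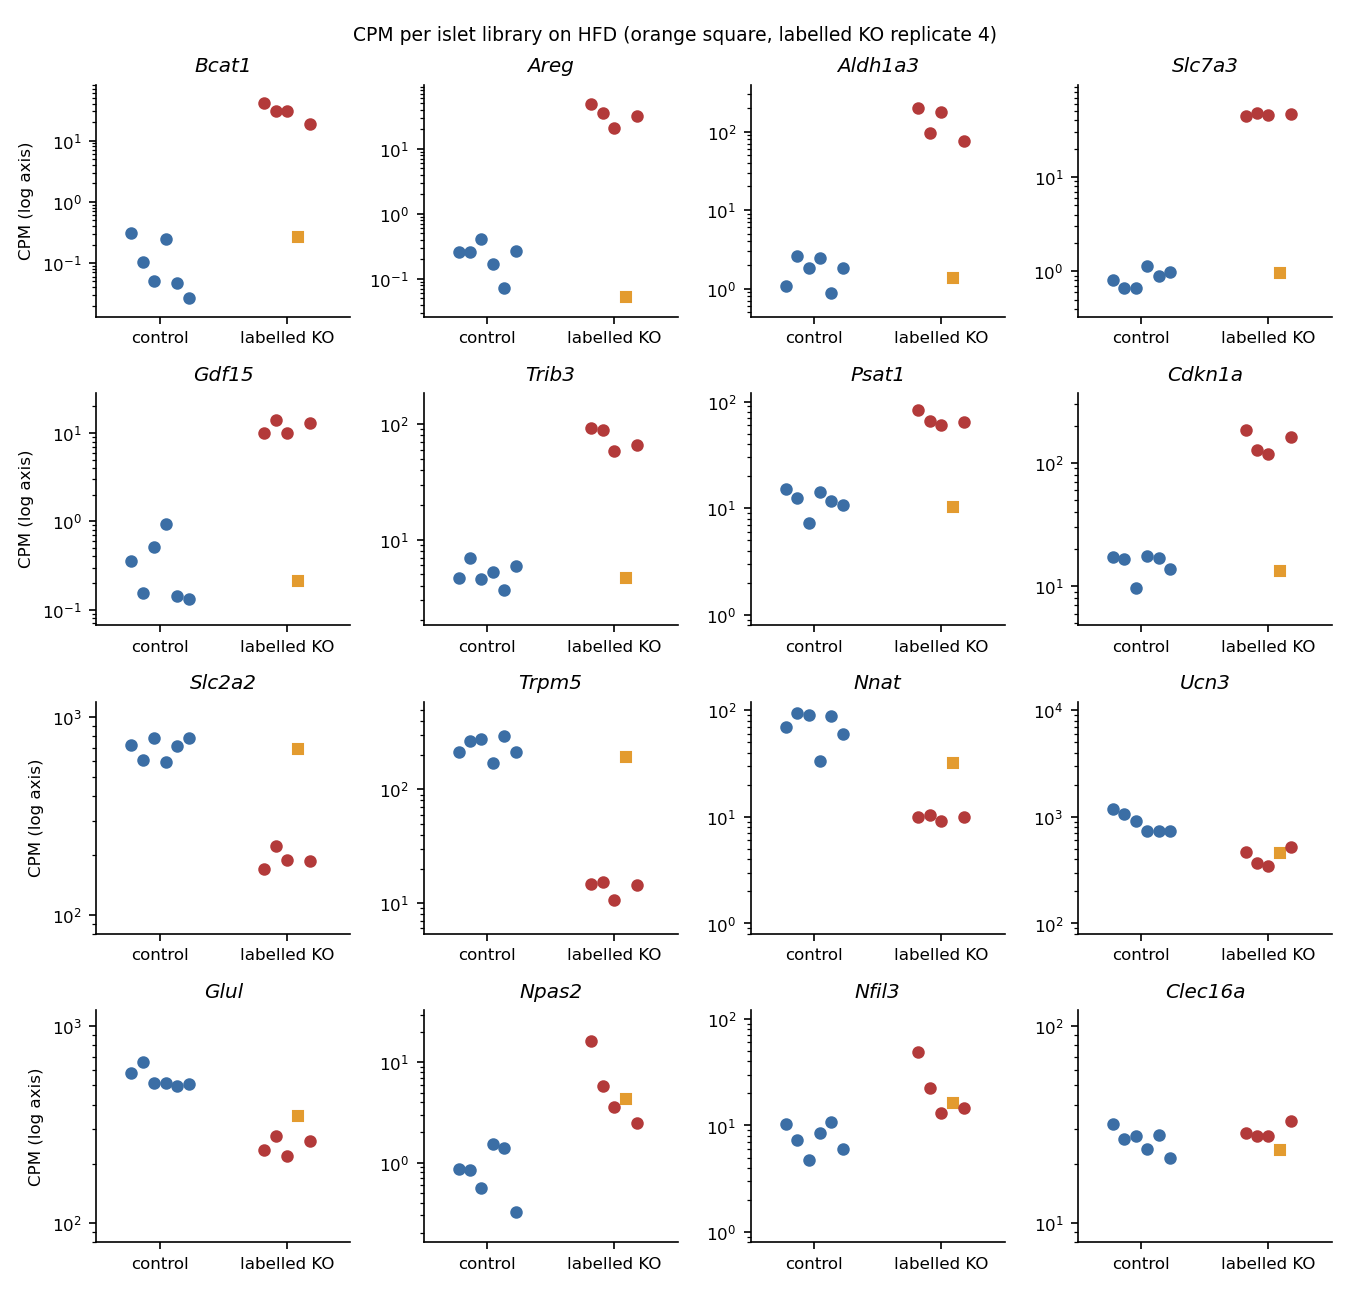
CPM of 16 genes in each HFD islet library, on log axes whose ranges differ between panels. Points are libraries, blue for the 6 controls, red for labelled KO 1, 2, 3 and 5, and an orange square for labelled KO replicate 4. Replicate 4 lies with the controls for Bcat1 to Cdkn1a and for Slc2a2 and Trpm5, and with the other labelled-KO libraries for Ucn3, Npas2 and Nfil3. Clec16a does not separate the groups.

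Transcription factors of the integrated stress response rose. Of 10 tested, 7 were called higher and none lower, with a median log2 fold change of 0.74, against 5.62% of all genes called higher. Without labelled KO replicate 4, 9 were called higher and the median was 0.92. Atf4, the central factor of the response, was at 223, 299 and 316 CPM in controls and 569, 510.0, 470.4, 289.7 and 484 CPM in labelled KO 1 to 5. Its log2 fold change was 0.72 (SE 0.14, adjusted p 0.00347), and every labelled-KO library but replicate 4 exceeded every control. Cebpg, a dimer partner of ATF4, changed by 0.73 (SE 0.14, adjusted p 0.00359) on the log2 scale, and replicate 4 was at 69.1 CPM within the control range of 50.6 to 73.0.

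Atf3 and Jdp2, further leucine zipper factors, rose from low levels by 1.78 and 1.19 on the log2 scale. Cebpb rose by 0.98 (adjusted p 0.0136), with 2.54 to 5.47 CPM in controls and 7.72 to 11.5 in labelled KO 1, 2, 3 and 5. Members past the first 5 of a list were named after their values were seen. Here they were Nupr1 (1.38, adjusted p 0.0202) and Ddit3, which encodes CHOP (0.76, adjusted p 0.0215). Calls that were lost when 1 library was left out are given with that library, where control and KO stand for the labelled HFD libraries. They were Cebpb (without KO 1 or 2, adjusted p 0.0525 to 0.0531), Nupr1 (without KO 1 or 5, adjusted p 0.0507 to 0.077) and Ddit3 (without KO 1, 2 or 3, adjusted p 0.0548 to 0.0807) among these factors.

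Feedback genes and effectors of the response followed in part: 8 of 16 were called higher and 1, the pseudokinase gene Trib1, lower (-0.65, adjusted p 0.0394). The median was 0.51, and 0.60 without labelled KO replicate 4, where 9 were called higher and 2 lower. Cdkn1a, the cell cycle inhibitor p21, was at 9.69, 16.8 and 17.6 CPM in controls and at 183, 128, 117, 13.2 and 162 CPM in labelled KO 1 to 5. All but replicate 4 lay far above every control, with a log2 fold change of 2.97 (SE 0.38, adjusted p 2.59e-04). Trib3, a pseudokinase that feeds back on ATF4, was at 3.64, 4.98 and 6.98 CPM in controls and 92.7, 88.9, 58.1, 4.69 and 65.4 CPM in labelled KO 1 to 5 (3.57, SE 0.51, adjusted p 4.16e-04 on the log2 scale).

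Chac1, a glutathione-degrading enzyme, rose by 2.17 (adjusted p 0.00127) on the log2 scale, Sesn2 (sestrin 2) by 0.91 (adjusted p 0.00403) and the phosphatase gene Dusp8 by 1.504 (adjusted p 0.00456). Ppp1r15a, which encodes GADD34 and directs the dephosphorylation of eIF2, rose by 0.77 (adjusted p 0.00480). Eif4ebp1 (1.24, adjusted p 0.0113) and Ern1, the ER stress sensor IRE1 (0.53, adjusted p 0.0160), were the others called higher. The call of Ern1 was lost without labelled KO 3 (adjusted p 0.0726), and that of Trib1 without any of 7 libraries in turn (adjusted p 0.0563 to 0.12). Of 13 genes for the eIF2 kinases and their regulators, none was called in either direction (none higher and 1 lower without labelled KO replicate 4). Their median was -0.03, and Eif2ak1, the kinase HRI that relays mitochondrial stress, had a log2 fold change of -0.11 (adjusted p 0.307).

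The promoters of 4 of the rising genes are shown, because ATF4 with its C/EBP partners is known to bind C/EBP-ATF response elements, whose core can be written TGATGNAA. The sequences are RefSeq's on GRCm38.p6, the 250 bases before the annotated start, 5′ to 3′ on the gene's strand, in lower case with matches to the 8 letters on either strand in capitals. Matches cannot overlap another searched motif, since only 1 was searched. The 4 are the called stress genes with the smallest adjusted p and a match before the start.
Pycr1: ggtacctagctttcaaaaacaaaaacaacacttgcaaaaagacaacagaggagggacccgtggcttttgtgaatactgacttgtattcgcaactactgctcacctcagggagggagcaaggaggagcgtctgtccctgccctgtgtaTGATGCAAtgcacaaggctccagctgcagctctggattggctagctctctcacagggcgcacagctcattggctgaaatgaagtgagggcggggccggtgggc
Slc7a11: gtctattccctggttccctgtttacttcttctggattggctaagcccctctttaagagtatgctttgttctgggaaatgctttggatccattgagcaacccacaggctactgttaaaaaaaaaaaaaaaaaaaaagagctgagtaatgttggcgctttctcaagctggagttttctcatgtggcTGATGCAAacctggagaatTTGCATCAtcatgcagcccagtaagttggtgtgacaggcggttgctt
Chac1: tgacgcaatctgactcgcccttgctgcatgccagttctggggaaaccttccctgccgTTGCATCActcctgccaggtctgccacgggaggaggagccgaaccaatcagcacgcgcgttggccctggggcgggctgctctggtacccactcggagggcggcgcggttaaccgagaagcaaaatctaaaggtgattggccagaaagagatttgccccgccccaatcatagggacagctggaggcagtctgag
Atf3: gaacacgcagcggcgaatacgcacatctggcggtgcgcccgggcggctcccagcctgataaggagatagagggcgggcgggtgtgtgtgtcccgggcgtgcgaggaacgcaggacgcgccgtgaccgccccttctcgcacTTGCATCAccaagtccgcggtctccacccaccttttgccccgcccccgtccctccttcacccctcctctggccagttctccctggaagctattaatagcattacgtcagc
They lie at chr11:120643749-120643998 (minus strand) for Pycr1, chr3:50443614-50443863 (minus strand) for Slc7a11, chr2:119350992-119351241 (plus strand) for Chac1 and chr1:191183334-191183583 (minus strand) for Atf3. The matches begin 103 bases before the start in Pycr1, 66 and 47 in Slc7a11, 193 in Chac1 and 110 in Atf3.

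Windows of 300 bases (250 before to 50 after the start) were in the RefSeq table for 72 of the 96 genes on 7 stress response lists, and 17 of the 72 (23.6%) held a match. Among all 32851 windows the share was 3.97%. Per gene, it was 2.88% for the 12506 tested genes with a window and 5.37% for the 745 of them called higher. Within the 7 lists the share was 26.5% for the 34 genes called higher and 21.1% for the 38 tested and not called higher. A match describes letters in a window and shows no binding.

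Secreted stress peptides gave the largest list median. Of 9 tested, 7 were called higher and none lower, with a median log2 fold change of 2.80 (3.12 without labelled KO replicate 4, with 8 called). Gdf15, a circulating marker of mitochondrial disease, was at 0.134, 0.255 and 0.940 CPM in controls and 10.04, 14.1, 9.88, 0.209 and 13.1 CPM in labelled KO 1 to 5. Replicate 4 was again inside the control range and the others far above it, with a log2 fold change of 4.69 (SE 0.66, adjusted p 3.53e-04). Stc2 (stanniocalcin 2) was at 0.262, 0.379 and 0.764 CPM in controls and 17.3, 24.8, 14.0, 0.209 and 8.87 CPM in labelled KO 1 to 5, or 4.89 (adjusted p 2.88e-04) on the log2 scale. Adm2, which encodes the peptide intermedin, changed by 4.45 (adjusted p 4.16e-04) and Angptl6 by 2.53 (adjusted p 4.75e-04).

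Fgf21, the fasting hormone, rose by 2.79 (adjusted p 0.0102) with 2 to 32 counts per control library and 50 to 112 in labelled KO 1, 2, 3 and 5. Vgf, a neuroendocrine granule peptide, was at 9.11 to 32.2 CPM in controls and 71.4 to 102 CPM in labelled KO 1, 2, 3 and 5, and replicate 4 was at 17.0. Adm (adrenomedullin) rose by 3.47 (adjusted p 0.00196). With a minimum of 10 counts in every library, which removes genes silent in controls, the list median was 1.41 in place of 2.80.

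Of the EGF receptor's ligands, 4 rose. Among 8 ligands and receptors tested, these were called higher and none lower, with a median of 0.39 (4 higher and 1 lower without labelled KO replicate 4). Areg (amphiregulin) was at 0.0713, 0.255 and 0.408 CPM in controls, 3 to 10 counts per library, and at 48.5, 35.5, 20.9, 0.0524 and 31.3 CPM in labelled KO 1 to 5, or 6.92 (SE 0.82, adjusted p 1.31e-04) on the log2 scale. Hbegf was at 8.21, 10.2 and 11.8 CPM in controls and 32.3, 31.2, 25.7, 18.1 and 24.9 CPM in labelled KO 1 to 5, so that all 5 lay above all 6 controls, replicate 4 least. Its log2 fold change was 1.36 (SE 0.19, adjusted p 4.33e-04). Egf and Tgfa changed by 0.63 (adjusted p 0.00483) and 0.90 (adjusted p 0.00761), whereas Egfr, which encodes the receptor, had -0.53 (adjusted p 0.0598) with all libraries and -0.77 (adjusted p 7.70e-04) without labelled KO replicate 4, so that it was called lower in the second fit.

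Enzymes that make serine, glycine and one-carbon units were called higher for 5 of 11 and lower for 1, with a median of 0.60 (0.75 without labelled KO replicate 4, with 7 higher and 1 lower). Psat1, a transaminase of serine synthesis, was at 7.24, 12.1 and 15.1 CPM in controls and 83.0, 65.3, 59.97, 10.2 and 64.6 CPM in labelled KO 1 to 5, a change of 2.24 (SE 0.35, adjusted p 6.56e-04) on the log2 scale. Phgdh, the first enzyme of the path, was at 6.12, 8.14 and 22.9 CPM in controls and 48.4, 40.9, 36.9, 6.89 and 43.3 CPM in labelled KO 1 to 5 (1.74, adjusted p 0.00891), and Psph, the last, rose by 1.25 (adjusted p 0.00308). All 3 steps of serine synthesis thus rose, and replicate 4 stayed at control level in each. The mitochondrial enzymes Aldh1l2 and Shmt2 rose by 1.65 (adjusted p 0.00505) and 0.60 (adjusted p 0.0307), while the cytosolic Mthfd1 fell, with 127 to 152 CPM in controls and 73.2 to 88.6 in labelled KO 1, 2, 3 and 5 (-0.62, adjusted p 0.00318). The call of Shmt2 was lost without any of 8 libraries in turn (adjusted p 0.0577 to 0.105). Gldc, the decarboxylase of the glycine cleavage system, had all 5 labelled-KO libraries above all controls: 1.05, 1.59 and 1.90 CPM in controls, and 5.21, 8.13, 7.99, 2.07 and 8.26 CPM in labelled KO 1 to 5.

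Among 14 enzymes of proline, asparagine, cysteine and transaminase metabolism, 4 were called higher and none lower (median 0.41, and 0.49 with 6 called without labelled KO replicate 4). Pycr1, the mitochondrial step of proline synthesis, was at 32.6, 39.1 and 43.3 CPM in controls and 211, 173, 185, 41.2 and 171 CPM in labelled KO 1 to 5, or 2.002 (SE 0.26, adjusted p 2.59e-04) on the log2 scale. Aldh18a1, which precedes it, rose by 0.62 (adjusted p 0.00464), and Gpt2, a mitochondrial alanine transaminase, by 1.17 (adjusted p 0.00325). Asns, asparagine synthetase and a classical ATF4 target, was called only in the fit without replicate 4 (0.60, adjusted p 0.00896, against 0.47, adjusted p 0.0956), and was named after its values were seen.

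Amino acid transporters were called higher for 7 of 16 and lower for none, with a median of 0.48 (0.61 without labelled KO replicate 4, with 9 higher and 1 lower). Slc7a11, the cystine carrier xCT, was at 0.0510, 0.212 and 0.608 CPM in controls and 8.11, 11.03, 8.38, 0.157 and 5.65 CPM in labelled KO 1 to 5 (4.46, SE 0.66, adjusted p 4.89e-04 on the log2 scale). Slc7a5 and Slc3a2, which form a carrier of large neutral amino acids, changed by 0.83 (adjusted p 0.00316) and 0.48 (adjusted p 0.0324). Slc7a1 rose by 0.91 (adjusted p 0.00343) and the glycine carrier Slc6a9 by 1.19 (adjusted p 0.0133), and in both all labelled-KO libraries but replicate 4 exceeded the controls. Slc1a4 (0.81, adjusted p 0.0378) was also called. Without 1 library, calls were lost for Slc3a2 (without control 2, 5 or 6 or KO 1, 2, 3 or 5, adjusted p 0.0681 to 0.0995) and Slc1a4 (without control 2, 3, 5 or 6 or KO 1, 2, 3 or 5, adjusted p 0.0742 to 0.114).

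Of 20 cytosolic aminoacyl-tRNA synthetases, 2 were called higher with all libraries and 8 without labelled KO replicate 4, none lower, with medians of 0.14 and 0.23. Eprs, for glutamate and proline, was at 125, 145 and 162 CPM in controls and 281, 245, 264, 170.0 and 248 CPM in labelled KO 1 to 5, all above the controls, with a log2 fold change of 0.75 (adjusted p 0.00230). Lars rose by 0.45 (adjusted p 0.0276), a call lost without any of 5 libraries in turn (adjusted p 0.0591 to 0.0886). Of 17 mitochondrial synthetases none was called higher and 1, Aars2, lower (-0.33, adjusted p 0.0383), with a median of -0.06 (none higher and 3 lower without labelled KO replicate 4). That call of Aars2 was lost without any of 7 libraries in turn (adjusted p 0.0657 to 0.125).

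**Figure D3:**
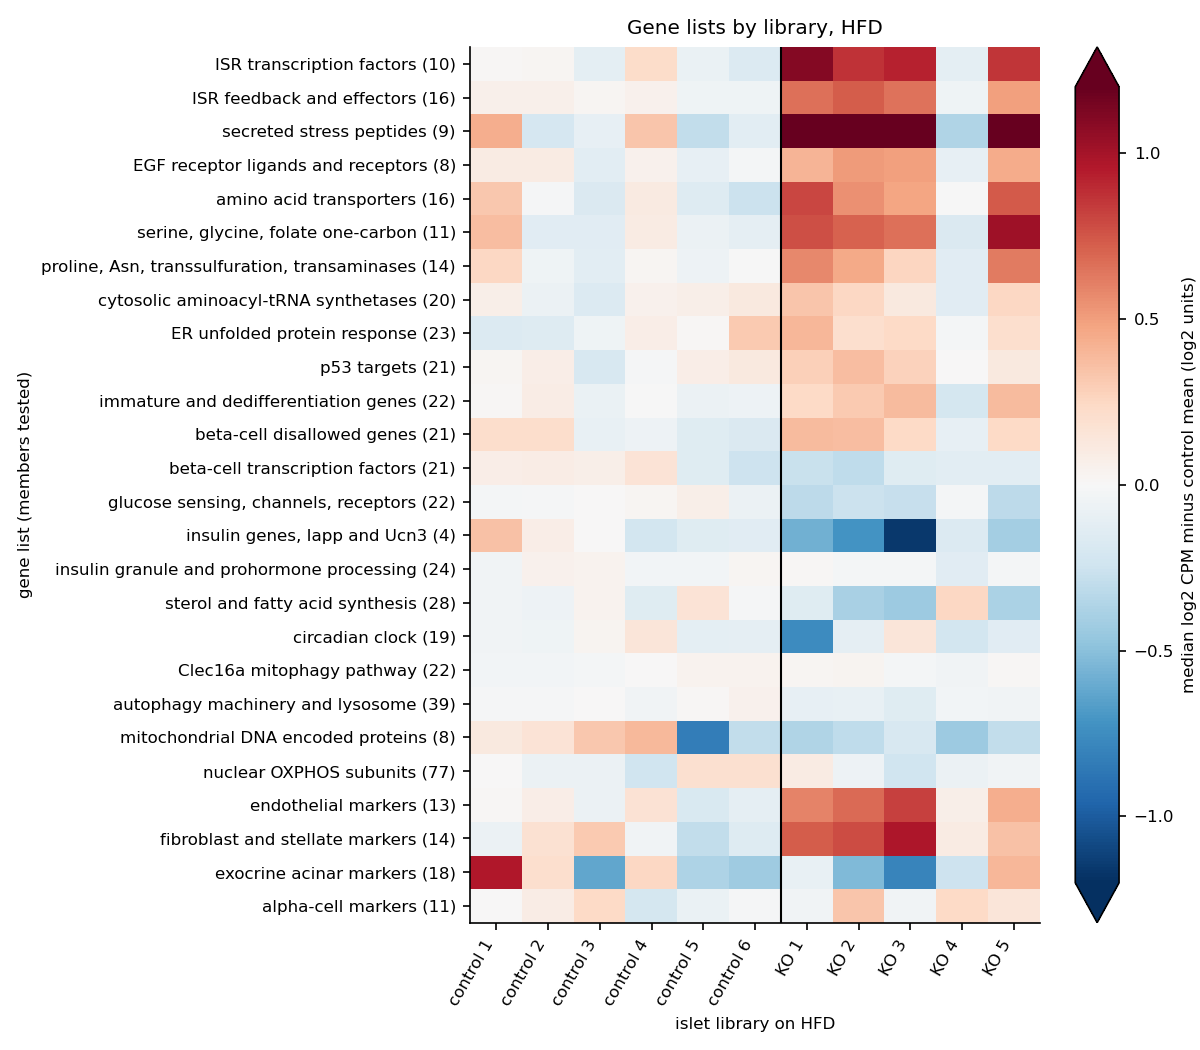
Each cell gives, for 1 HFD library (columns) and 1 gene list (lines, with the number of members tested), the median over members of log2 CPM minus the control mean, from blue (lower) to red (higher), with the scale ending at 1.2. The vertical line divides 6 controls from 5 labelled-KO libraries. The stress lists are red in labelled KO 1, 2, 3 and 5 and not in replicate 4, at -0.12 for the ISR transcription factors against 0.86 to 1.10, and at -0.36 for the secreted stress peptides, below every control.

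In the unfolded protein response of the endoplasmic reticulum, 2 of 23 genes were called higher and none lower (median 0.19), and 7 higher and 1 lower without labelled KO replicate 4. The pair called with all libraries was Sel1l, a scaffold of ER-associated degradation (0.54, adjusted p 0.00869), and Derl3 (0.90, adjusted p 0.0251), whose call was lost without any of 6 libraries in turn (adjusted p up to 0.0708). Of 17 mitochondrial proteases and chaperones, none was called with all libraries (by edgeR at the adjusted threshold), and the median was -0.04. Without replicate 4, Hspa9 and Lonp1 were called higher (0.40, adjusted p 0.0122 and 0.29, adjusted p 0.00816) and Afg3l2 lower (-0.42, adjusted p 8.29e-04).

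NRF2 targets were called in both directions, with 4 of 25 higher, 2 lower and a median of 0.0014 (6 higher and 3 lower without labelled KO replicate 4). For this list and the p53 and BCL2 lists below, the background is 9.57% of all genes called, and 20% without replicate 4. Besides Slc7a11, the called genes were Gclc (0.31, adjusted p 0.0287), Srxn1 (0.39, adjusted p 0.0381) and Hmox1 (0.61, adjusted p 0.0431), which rose, and Sod2 (-0.28, adjusted p 0.0303) and Nfe2l2, NRF2 itself (-0.28, adjusted p 0.0173), which fell. The calls of Nfe2l2 (without KO 1, adjusted p 0.0627), Sod2 (without control 5 or 6 or KO 1, 2 or 3, adjusted p 0.0588 to 0.103) and Gclc (without control 2, 5 or 6 or KO 2, 3 or 5, adjusted p 0.052 to 0.125) depended on single libraries, as did, without any of 8 libraries in turn, those of Srxn1 (adjusted p up to 0.133) and Hmox1 (up to 0.129). Of 21 p53 targets, 3 were called higher and none lower (6 higher and 3 lower without labelled KO replicate 4). The 3 called with all libraries were Cdkn1a, Sesn2 and Phlda3, the last at 1.63, 2.31 and 3.21 CPM in controls and 9.40, 8.84, 6.85, 2.44 and 4.74 CPM in labelled KO 1 to 5 (1.47, adjusted p 0.00359). In the BCL2 family Hrk rose and Bcl2l11, which encodes BIM, fell (-0.53, adjusted p 0.0321, a call lost without any of 6 libraries in turn, adjusted p 0.0616 to 0.102), among 16 tested. Without labelled KO replicate 4 that family had 4 higher and 1 lower.

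Part of the genes by which beta cells sense glucose and hormones fell. Of 22 tested, 7 were called lower and 1 higher, against 3.95% of all genes called lower, with a median of -0.18. Without labelled KO replicate 4, 11 were called lower and 2 higher (background 9.53% and 10.5%), with a median of -0.23. Slc2a2, the glucose transporter GLUT2, was at 591, 723 and 785 CPM in controls and 170.0, 223, 189, 692 and 186 CPM in labelled KO 1 to 5. Replicate 4 was inside the control range and the other 4 lay below it, with a log2 fold change of -1.26 (SE 0.30, adjusted p 0.0108), and -1.87 (adjusted p 1.88e-07) without replicate 4.

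Trpm5, a cation channel opened by calcium, showed the widest gap of the list: 169.7, 241 and 295 CPM in controls and 14.8, 15.4, 10.7, 191 and 14.5 CPM in labelled KO 1 to 5. Its log2 fold change was -2.27 (SE 0.60, adjusted p 0.0218) with all libraries and -4.12 (adjusted p 3.59e-09) without replicate 4. Its call was lost when labelled KO 1, 2, 3 or 5 was left out (adjusted p 0.0537 to 0.0657) with replicate 4 kept. Gipr, the receptor of the incretin GIP, was at 268, 295 and 378 CPM in controls and 89.8, 119.8, 107, 293 and 144 CPM in labelled KO 1 to 5 (-1.04, adjusted p 0.0123). Glp1r, the GLP-1 receptor, was at 868, 935 and 1058 CPM in controls and 559, 495, 525, 906 and 553 CPM in labelled KO 1 to 5 (-0.65, adjusted p 0.00464). Both incretin receptors thus stood at control level in replicate 4 and below it in the others.

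The fatty acid receptor Ffar1 changed by -0.56 (adjusted p 0.00718) and the somatostatin receptor Sstr3 by -0.47 (adjusted p 0.00464), the latter with 190.0, 208, 192, 219.5 and 222 CPM in labelled KO 1 to 5 against a control median of 291, all 5 below every control. The nucleotide transporter Slc17a9, which loads ATP into granules, was the member that rose, with 18.4 to 30.4 CPM in controls and 53.9 to 67.3 in labelled KO 1, 2, 3 and 5 (1.11, adjusted p 0.00134).

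Of the hormones of the beta cell, Ucn3, a marker of mature beta cells, was called. It was at 730.1, 830.5 and 1196 CPM in controls and 469, 368, 347, 454 and 527 CPM in labelled KO 1 to 5. All 5 labelled-KO libraries lay below all 6 controls, replicate 4 included, with a log2 fold change of -1.05 (SE 0.14, adjusted p 2.59e-04). Ins2 was at 144050.0, 191100.0 and 225190.0 CPM in controls and 147600.0, 126480.0, 94285, 161710.0 and 162370.0 CPM in labelled KO 1 to 5, and missed the threshold with all libraries (-0.45, adjusted p 0.0652) but not without replicate 4 (-0.51, adjusted p 0.0216). The same held for Ins1 (-0.67, adjusted p 0.185, and -0.97, adjusted p 0.0239 without it), while Iapp had -0.07 (adjusted p 0.790). In RNA from whole islets, fewer cells of a type and less RNA per cell cannot be told apart. Of 8 hormone genes of the other islet cells, none was called with all libraries and 1 was higher without replicate 4.

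Ins1 as a share of Ins1 and Ins2 counts split the libraries in another way. It was 16.6% to 31.8% in controls, 17.9% to 19.7% in labelled KO 1, 2, 3 and 5, and 28.9% in replicate 4. The means were 23.9% ± 7.20 (SD, n = 6) and 20.9% ± 4.55 (SD, n = 5), which did not differ beyond their spread (exact two-sided permutation test, p = 0.541, adjusted over 2 shares 0.541). The difference of -3.03 percentage points became -5.04 without labelled KO replicate 4 (exact permutation p = 0.324) and -1.61 or -1.47 without control 3 or 4 (exact permutation p = 0.825 and 0.881). No library lay between 19.7% and 28.4%, and 3 controls lay on either side of that gap, with replicate 4 on the upper side. Ins1 and Ins2 are close in sequence, so reads could be split between them. Within the libraries of sequencing lane 7 the difference was -7.71 percentage points (exact permutation p = 0.4), and within lane 8 it was 0.753 (exact permutation p = 0.9), so its sign differed between lanes, whose few libraries leave such a test little room.

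Transcription factors of beta cells were called lower for 1 of 21 with all libraries and for 5 without labelled KO replicate 4, none higher, with medians of -0.21 and -0.16. Mlxipl, the glucose-responsive factor ChREBP, was at 572, 791 and 927 CPM in controls and 261, 325, 422, 552 and 462 CPM in labelled KO 1 to 5, all below the controls (-0.95, SE 0.19, adjusted p 0.00386). Mafa had 354, 329, 219, 213 and 259 CPM in labelled KO 1 to 5 against 243 to 500.2 in controls, with replicate 4 lowest of all, and did not pass (-0.63, adjusted p 0.0538). Pax6 (-0.34, adjusted p 0.0726), Neurod1 (-0.42, adjusted p 0.104) and Hnf4a (-0.23, adjusted p 0.120) did not pass either.

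Granule and prohormone genes moved in both directions, with 3 of 24 higher, 2 lower and a median of -0.06 (3 higher and 5 lower without labelled KO replicate 4). The background is 9.57% of all genes called, and 20% without replicate 4. Chgb, a granin of the secretory granule, was at 1798, 1945 and 2019 CPM in controls and 4222, 5021, 4433, 1462 and 2958 CPM in labelled KO 1 to 5, where replicate 4 lay below every control and the others above (0.91, adjusted p 0.0109). Scg2, another granin, rose by 0.59 (adjusted p 0.0256) and the granule phosphatase Ptprn by 0.49 (adjusted p 0.0373). Sytl4 (granuphilin), which docks granules, was at 252, 327 and 482 CPM in controls and 106, 108, 121, 313 and 141 CPM in labelled KO 1 to 5 (-1.17, adjusted p 0.00770), and its partner Rab27a changed by -0.37 (adjusted p 0.00420). With 1 library left out, the calls of Scg2 (without control 3 or 5 or KO 1, 2, 3 or 5, adjusted p 0.0517 to 0.0928) and Ptprn (without control 2, 4, 5 or 6 or KO 1, 2, 3 or 5, adjusted p 0.0577 to 0.116) were lost.

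Among 22 genes of immature or dedifferentiated islet cells, 7 were called higher and 1 lower, with a median of 0.33 (0.46 without labelled KO replicate 4, with 9 higher). Aldh1a3, a retinaldehyde dehydrogenase used as a marker of failing beta cells, was at 0.880, 1.83 and 2.61 CPM in controls and 199, 96.8, 175, 1.36 and 76.6 CPM in labelled KO 1 to 5. Replicate 4 lay inside the control range and the others far above it, with a log2 fold change of 5.93 (SE 0.83, adjusted p 3.45e-04). Cd81, a surface marker of immature beta cells, was at 57.1, 69.0 and 83.0 CPM in controls and 175, 196, 164, 68.4 and 197 CPM in labelled KO 1 to 5 (1.18, adjusted p 6.56e-04). Gc, the vitamin D binding protein, rose by 1.40 (adjusted p 5.30e-04) and Bach2, a transcriptional repressor, by 2.07 (adjusted p 0.00293).

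Slc5a10, a sugar cotransporter of that list, was uneven within the labelled-KO group: 0.459, 0.752 and 1.149 CPM in controls and 18.1, 47.1, 18.1, 0.524 and 1.52 CPM in labelled KO 1 to 5, with replicate 5 just above the controls (4.44, adjusted p 9.35e-04). Of the hormone genes of the list, Penk and Gast rose by 1.48 (adjusted p 0.0344) and 1.23 (adjusted p 0.0433) from under 1 CPM, and Npy fell (-1.40, adjusted p 0.0442). All 3 of these calls were lost without several single libraries in turn (adjusted p up to 0.0995, 0.144 and 0.128). Of 21 genes that beta cells normally silence (disallowed genes), 2 were called higher, Igfbp4 (0.84, adjusted p 0.0267) and Lmo4 (0.77, adjusted p 0.0456), both lost without several single libraries (up to 0.0997 and 0.129). The median of the list was 0.26 (5 higher and 1 lower without labelled KO replicate 4). In retinoid metabolism, 1 of 12 was called higher and 2 lower, with or without labelled KO replicate 4. Rara, a retinoic acid receptor, fell, with 21.7 to 36.2 CPM in controls and 9.75 to 13.7 in labelled KO 1, 2, 3 and 5 (-1.02, adjusted p 0.00464), Dhrs3 rose (0.66, adjusted p 0.0158), and Rbp2, a retinol-binding protein, was called lower with controls spread from 0.0510 to 37.5 CPM and labelled-KO libraries at 0 to 0.243. Leaving out 1 library ended the calls of Dhrs3 (without KO 1 or 2, adjusted p 0.0572 to 0.0637) and Rbp2 (without control 2 or KO 1, 2 or 3, adjusted p 0.0544 to 0.0715).

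For part of the clock genes, labelled KO replicate 4 went with the other labelled-KO libraries. Of 19 tested, 3 were called higher and 5 lower, with a median of -0.20 (4 higher and 5 lower without labelled KO replicate 4). Without labelled KO 3 that median was -0.38. Replicate 4 lay beyond all controls on the side of the change for 9 of the 19, against 2183 of all 17254 genes. Such members were not confined to this list: they were 6 of 18 in glycolysis and 9 of 39 in autophagy and the lysosome. Among the ISR transcription factors they were 0 of 10. Npas2, a partner of BMAL1, was at 0.321, 0.855 and 1.55 CPM in controls and 16.5, 5.84, 3.61, 4.32 and 2.49 CPM in labelled KO 1 to 5, all above the controls (2.79, SE 0.48, adjusted p 0.00145). Nfil3, a repressor driven by the clock, was at 4.79, 7.91 and 10.8 CPM in controls and 48.7, 22.2, 13.0, 16.3 and 14.6 CPM in labelled KO 1 to 5, also all above (1.53, SE 0.30, adjusted p 0.00352). Arntl, which encodes BMAL1, was at 3.67, 4.78 and 8.93 CPM in controls and 33.3, 12.6, 7.04, 15.6 and 8.44 CPM in labelled KO 1 to 5 (1.48, adjusted p 0.00788), with 2 of the 5 inside the control range.

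The 5 clock genes called lower were Bhlhe41, Tef, Per3, Dbp and Cry2, and 11 of the list were not called. Bhlhe41 (DEC2) was at 68.9, 76.8 and 81.1 CPM in controls and 26.7, 40.2, 39.5, 58.8 and 38.0 CPM in labelled KO 1 to 5, all below (-0.90, SE 0.14, adjusted p 6.04e-04). Tef, an output factor, was at 124, 129 and 167 CPM in controls and 35.6, 68.6, 87.0, 111 and 87.8 CPM in labelled KO 1 to 5, all below (-0.81, adjusted p 0.0123). Per3 (-0.86, adjusted p 0.0191), Dbp (-0.998, adjusted p 0.0227) and Cry2 (-0.41, adjusted p 0.0263) also fell. Labelled KO replicate 1 was the most extreme of the 5 for Npas2, Nfil3, Arntl, Bhlhe41, Tef, Per3, Dbp and Cry2. Of these calls, Per3 (without KO 2, adjusted p 0.0568), Dbp (without control 3 or KO 1 or 2, adjusted p 0.0554 to 0.0638) and Cry2 (without control 2 or KO 1, 2 or 3, adjusted p 0.0514 to 0.0833) were lost without 1 library.

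Few genes of the mitochondrion itself were called. Of the 77 nuclear subunits of oxidative phosphorylation tested, 1 (Sdha, -0.27, adjusted p 0.0387) was called lower and none higher, with a median of -0.07 (1 higher and 1 lower without labelled KO replicate 4), and the call of Sdha was lost without any of 7 libraries in turn (adjusted p 0.0555 to 0.114). Of 13 proteins encoded by mitochondrial DNA, 8 could be tested, and none was called with or without labelled KO replicate 4 (median -0.37 with all libraries). The share of all counts on mitochondrial DNA genes was 2.30% ± 0.623 (SD, n = 6) in controls and 1.94% ± 0.208 (SD, n = 5) in labelled KO, which did not differ beyond the spread (exact two-sided permutation test, p = 0.251, adjusted over 2 shares 0.502). The difference of -0.355 percentage points was -0.302 without labelled KO replicate 4 (exact permutation p = 0.39), -0.203 without control 4 (p = 0.46) and -0.539 without control 5 (p = 0.0635). Within lane 7 the difference was -0.664 percentage points and within lane 8 -0.0762 (exact permutation p = 0.2 and 0.9). Of 10 fusion and fission genes none was called, at a median of -0.05 (none higher and 1 lower without labelled KO replicate 4). Among 20 genes of mitochondrial DNA upkeep, 1 of which was called in each direction (2 and 2 without labelled KO replicate 4), Nrf1 rose (0.47, adjusted p 0.0228) and Ppargc1a, which encodes PGC-1alpha, fell (-1.26, adjusted p 0.0271). Both calls depended on single libraries: Nrf1 (without KO 1, 2 or 3, adjusted p 0.0681 to 0.0824) and Ppargc1a (without control 1 or 4 or KO 1, 2, 3 or 5, adjusted p 0.0534 to 0.0811).

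In the mitophagy pathway in which Clec16a acts, 1 of 22 genes was called, with a median of -0.01 (none higher and 2 lower without labelled KO replicate 4). It was Optn (optineurin), at 16.4, 20.2 and 24.4 CPM in controls and 15.6, 15.4, 12.5, 16.8 and 10.996 CPM in labelled KO 1 to 5 (-0.52, adjusted p 0.0332), lost without any of 6 libraries in turn (adjusted p 0.0574 to 0.101). Rnf41 had 0.11 (adjusted p 0.332) and Pink1 0.16 (adjusted p 0.264), which did not pass. Among 39 genes of autophagy and the lysosome, 1 was called higher and 4 lower, with a median of -0.08 (1 higher and 5 lower without labelled KO replicate 4). The share of all genes called was 9.57%, and 20% without replicate 4, so these counts are not read as a change of the list. Wipi1, a phosphoinositide-binding autophagy protein, was at 38.9, 47.9 and 63.8 CPM in controls and 113, 126, 159, 78.4 and 101 CPM in labelled KO 1 to 5, all above the controls (1.23, SE 0.19, adjusted p 6.56e-04). Pik3c3, the lipid kinase VPS34, changed by -0.37 (adjusted p 0.0129). The lysosomal genes Lamp1 (-0.27, adjusted p 0.0296), Lamp2 (-0.42, adjusted p 0.0343) and Mcoln1 (-0.38, adjusted p 0.0414) fell, calls lost without 7, 7 and 8 single libraries in turn (adjusted p up to 0.0984, 0.107 and 0.126).

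Fuel metabolism shifted at single steps. Of 28 genes of the citric acid cycle and pyruvate entry, 2 were called higher and 4 lower, with a median of -0.07 (3 higher and 5 lower without labelled KO replicate 4). Calls over all genes came to 9.57%, and to 20% without replicate 4. Idh2, mitochondrial NADP-dependent isocitrate dehydrogenase, was at 174, 176 and 207 CPM in controls and 114, 103, 99.4, 169 and 109 CPM in labelled KO 1 to 5, all below the controls (-0.61, SE 0.11, adjusted p 0.00274). Mpc1, a subunit of the mitochondrial pyruvate carrier, and Pcx, pyruvate carboxylase, changed by -0.52 (adjusted p 0.00283) and -0.66 (adjusted p 0.00737), in each case in all 5 labelled-KO libraries. Me3, a mitochondrial malic enzyme, and Pdk1, an inhibitor of pyruvate dehydrogenase, rose by 1.11 (adjusted p 0.00293) and 0.60 (adjusted p 0.0103).

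Glycolysis had 2 of 18 genes called lower (1 higher and 4 lower without labelled KO replicate 4), Aldoc (-0.80, adjusted p 0.0302) and Pfkl (-0.30, adjusted p 0.0405), neither of which kept its call under every library left out (adjusted p up to 0.104 and 0.127). With all libraries, 3.95% of all genes were called lower. The count for sterol and fatty acid synthesis turned on labelled KO replicate 4. With all libraries 0 of 28 genes were called by edgeR, with a median of -0.20. Without replicate 4, 12 were called lower and none higher (background 9.53% lower), with a median of -0.40.

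**Figure D4:**
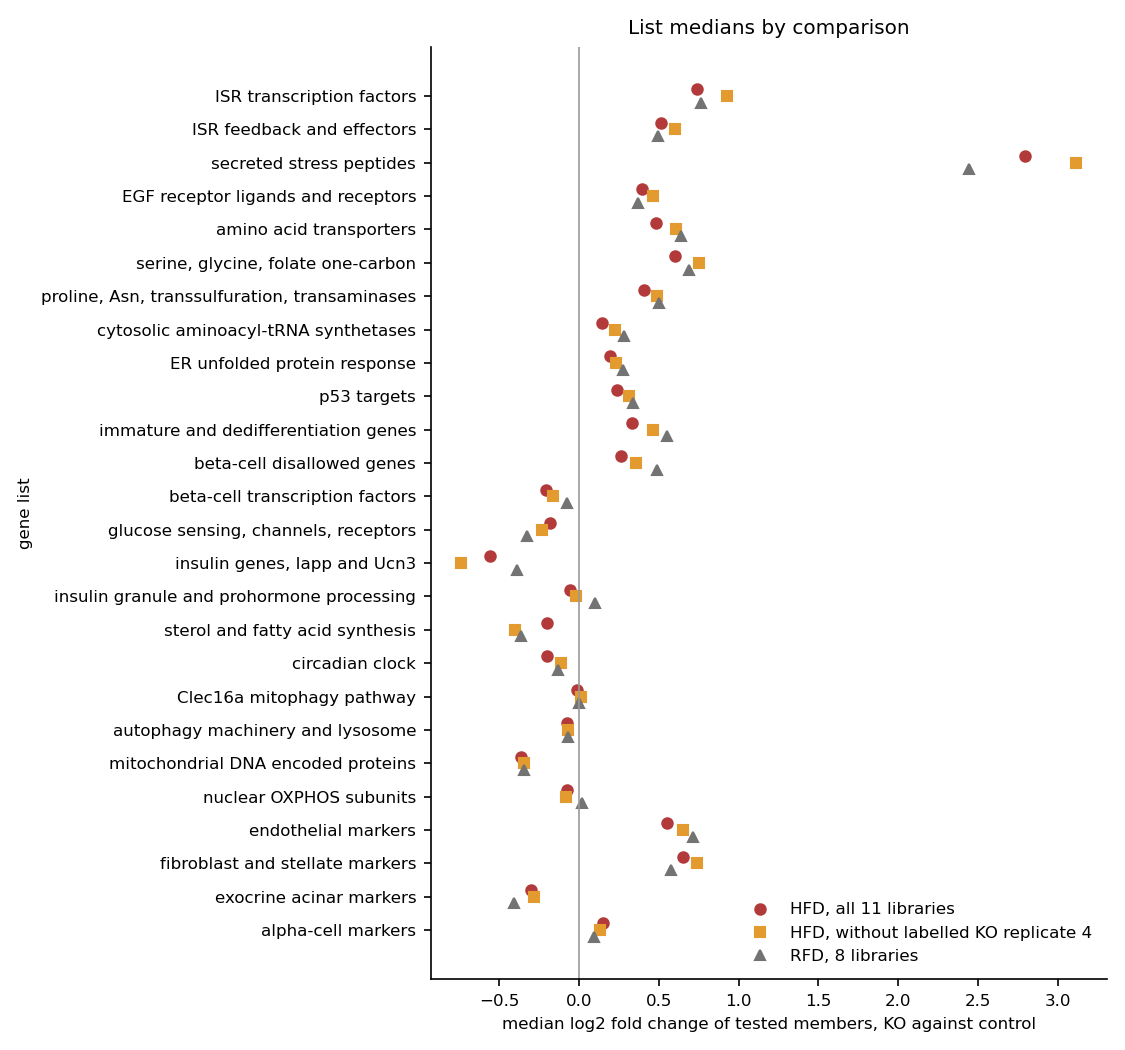
Median log2 fold change of the tested members of 26 lists, labelled KO against control, on HFD with all 11 libraries (red circles), on HFD without labelled KO replicate 4 (orange squares) and on RFD (grey triangles). The secreted stress peptides lie farthest to the right (2.80, 3.12 and 2.44), and sterol synthesis moves from -0.20 to -0.40 when replicate 4 is left out.

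Of 21 immediate early genes, 3 were called higher and 1 lower, with a median of 0.27 (6 higher and 1 lower without labelled KO replicate 4). Dusp6, a phosphatase induced by ERK signalling, was at 8.70, 11.3 and 13.4 CPM in controls and 28.7, 34.2, 42.4, 10.58 and 25.9 CPM in labelled KO 1 to 5 (1.32, adjusted p 0.00126), and the ternary complex factor Elk3 rose by 0.80 (adjusted p 0.00246). Nr4a2 (0.68, adjusted p 0.0425) rose and Fosb (-1.61, adjusted p 0.0388) fell, with calls lost without several single libraries (adjusted p up to 0.162 and 0.149). Among 19 imprinted growth genes, 1 was called higher and 2 lower (1 higher and 4 lower without labelled KO replicate 4). For both lists the background is 9.57% of all genes called, and 20% without replicate 4. Nnat (neuronatin), needed for insulin processing, was at 33.6, 78.9 and 93.2 CPM in controls and 9.86, 10.4, 9.09, 32.1 and 9.96 CPM in labelled KO 1 to 5, where replicate 4 lay between the groups (-2.32, SE 0.37, adjusted p 8.03e-04). Rasgrf1 was at 223, 278 and 287 CPM in controls and 137, 173, 166, 170.0 and 212 CPM in labelled KO 1 to 5, all below (-0.63, adjusted p 0.00147), and Grb10 rose by 0.70 (adjusted p 0.00456).

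Calls in the immune lists are read against 9.57% of all genes with all libraries and 20% without labelled KO replicate 4. Of 30 interferon-stimulated genes, 2 were called lower (Ddx58, -0.44, adjusted p 0.0378, and Parp9, -0.28, adjusted p 0.0480) and none higher, at a median of -0.18 (1 higher and 5 lower without labelled KO replicate 4). Of 13 genes of class I antigen presentation, Tapbp (-0.49, adjusted p 0.00413) and Psmb9 (-0.68, adjusted p 0.0209) were called lower, and 4 without labelled KO replicate 4. The calls of Ddx58, Parp9 and Psmb9 were lost without 8, 9 and 4 single libraries in turn (adjusted p up to 0.118, 0.14 and 0.073). Of 25 proliferation genes none was called by edgeR (2 higher without labelled KO replicate 4), and their median was 0.14.

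Over all genes, 214 (1.24%) had all 5 labelled-KO libraries above all 6 controls and 235 (1.36%) had them below, and 338 of them (1.96% of those tested) were called. At least 4 of the 5 lay above all controls for 1652 genes (9.57%) and below for 1528 (8.86%). Rasgrf2, a Ras and Rac exchange factor, was at 12.8, 15.4 and 20.8 CPM in controls and 88.3, 87.3, 94.9, 25.8 and 58.0 CPM in labelled KO 1 to 5, or 2.16 (SE 0.24, adjusted p 1.05e-04) on the log2 scale. Serpina7 was at 7.72, 11.1 and 14.0 CPM in controls and 108, 74.6, 98.9, 18.2 and 74.97 CPM in labelled KO 1 to 5 (2.79, adjusted p 2.59e-04). For both, and for the noncoding RNA Gm34225 (3.24, adjusted p 1.88e-04) and the ER retrieval receptor Kdelr3 (1.92, adjusted p 3.40e-04), replicate 4 was above the highest control by far less than the others. Arrdc4, an arrestin-like gene induced by glucose, rose by 1.67 (adjusted p 3.40e-04).

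Among the genes below all controls in all 5, Glul (glutamine synthetase) was at 494, 514 and 653 CPM in controls and 235, 276, 220.4, 351 and 263 CPM in labelled KO 1 to 5 (-1.02, SE 0.12, adjusted p 1.12e-04). Th, tyrosine hydroxylase, was at 61.8, 89.8 and 109 CPM in controls and 30.9, 29.6, 24.4, 42.9 and 26.5 CPM in labelled KO 1 to 5 (-1.48, adjusted p 1.77e-04). Baiap2, an actin regulator, was at 19.98, 29.6 and 37.7 CPM in controls and 7.001, 8.57, 10.3, 10.9 and 13.4 CPM in labelled KO 1 to 5 (-1.53, adjusted p 3.40e-04). In Baiap2, as in Ucn3, replicate 4 lay among the other labelled-KO libraries, whereas in Glul and Th it lay nearest to the controls. The genes of this group were picked because replicate 4 too lay below all controls, so they do not show that it follows its label. Cdhr1 (-1.03, adjusted p 3.73e-04), Pard3 (-0.88, adjusted p 4.89e-04) and Ftl1, the ferritin light chain (-0.75, adjusted p 4.89e-04), completed the group. Ftl1 has processed copies in the genome with which reads may be shared.

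The largest decreases showed the control position of replicate 4 plainly. Fam151a was at 277, 401 and 444 CPM in controls and 57.7, 45.9, 48.8, 279 and 45.7 CPM in labelled KO 1 to 5 (-2.03, adjusted p 0.00326). Cib3, a calcium-binding protein, was at 27.4, 42.5 and 56.1 CPM in controls and 2.12, 2.51, 2.96, 36.1 and 5.77 CPM in labelled KO 1 to 5 (-2.07, adjusted p 0.0233, and -3.71, adjusted p 1.88e-07 without replicate 4). T2 had replicate 4 between the groups: 26.8, 32.3 and 45.4 CPM in controls and 3.41, 2.57, 3.18, 15.9 and 6.38 CPM in labelled KO 1 to 5 (-2.39, adjusted p 0.00127).

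Mslnl (-2.18, adjusted p 0.0150) and the Bambi pseudogene Bambi-ps1 (-1.83, adjusted p 0.00456) fell, as did the antisense RNA 2410021H03Rik (-1.85, adjusted p 0.0324), whose reads cannot be told from those of the other strand if the counting did not use strand. Mgam, maltase-glucoamylase, and Pigr, the polymeric immunoglobulin receptor, changed by -3.17 (adjusted p 0.0287) and -2.04 (adjusted p 0.0354), but the controls themselves spread over 1.38 to 24.6 CPM for Mgam and 10.9 to 60.6 CPM for Pigr. Leaving out 1 library ended the calls of Cib3 (without KO 1, 2, 3 or 5, adjusted p 0.0589 to 0.0721) and Mslnl (without KO 3, adjusted p 0.0547) and of 2410021H03Rik, Mgam and Pigr (adjusted p up to 0.1, 0.0898 and 0.105).

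Within 2 Mb of Clec16a, 25 other genes were tested and 5 were called, against 9.57% of all genes. Without labelled KO replicate 4, 6 were called, against 20% of all genes. Emp2, a membrane protein, was at 9.001, 9.34 and 11.2 CPM in controls and 12.3, 13.8, 15.2, 11.97 and 13.4 CPM in labelled KO 1 to 5, all above (0.46, adjusted p 0.00629). Tvp23a was at 5.17, 6.14 and 7.66 CPM in controls and 8.98, 8.52, 9.02, 8.43 and 9.66 CPM in labelled KO 1 to 5, also all above (0.49, adjusted p 0.0130). Replicate 4 thus lay above every control at both. They were picked by an adjusted p that its own values entered, so they do not show that it follows its label. Emp2 (ENSMUSG00000022505, chromosome 16, 10281749 to 10313968, minus strand) and Tvp23a (ENSMUSG00000050908, chromosome 16, 10420557 to 10447362, minus strand) lie before the start of Clec16a. On RFD, Emp2 had 0.50 (adjusted p 0.0129) and Tvp23a 0.02 (adjusted p 0.946), so that the first was called on both diets and the second on HFD. Carhsp1 (0.55, adjusted p 0.00900) rose, and Abat (-0.47, adjusted p 0.0253) and Snn (-0.72, adjusted p 0.0304) fell, with replicate 4 inside the control range for Carhsp1 and Snn and just above it for Abat. Calls lost without 1 library were Abat (without control 5 or KO 1, 2, 3 or 5, adjusted p 0.0531 to 0.0882) and Snn (without control 1, 2 or 4 or KO 1, 2, 3 or 5, adjusted p 0.0529 to 0.104).

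Endothelial and fibroblast marker sums were higher in labelled KO 1, 2, 3 and 5 and not in replicate 4. The other marker lists held few calls or none. Of 13 endothelial markers, 10 were called higher and none lower, with or without labelled KO replicate 4. In 2 of them, Tek and Tie1, all 5 labelled-KO libraries lay above every control. The summed level was 548.3 to 715.9 CPM in controls, 964.6 to 1119 in labelled KO 1, 2, 3 and 5, and 614.3 in replicate 4. Eng (endoglin) was at 50.9, 57.0 and 74.8 CPM in controls and 134, 143, 138, 50.2 and 129 CPM in labelled KO 1 to 5 (0.99, adjusted p 0.00293), Plvap rose by 0.80 (adjusted p 0.00622) and Kdr, the VEGF receptor, by 0.55 (adjusted p 0.00342). Cd34, also found on vessels, was at 17.4, 20.5 and 22.8 CPM in controls and 36.3, 45.6, 39.4, 29.7 and 28.5 CPM in labelled KO 1 to 5, all above (0.82, adjusted p 3.40e-04).

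Of 14 fibroblast and stellate markers, 6 were called higher and none lower (11 without labelled KO replicate 4). Their sum was 133.6 to 205.1 CPM in controls, 251.8 to 383.9 in labelled KO 1, 2, 3 and 5, and 170.9 in replicate 4. Col1a2 was at 7.39, 9.40 and 15.96 CPM in controls and 18.4, 19.4, 21.2, 18.6 and 15.4 CPM in labelled KO 1 to 5 (0.87, adjusted p 0.00293). Here replicate 4 lay above every control with labelled KO 1, 2 and 3, and replicate 5 just under the highest control. The pericyte gene Rgs5 rose by 0.80 (adjusted p 0.0117). Without labelled KO 3, Acta2, Col1a1, Col3a1 and Rgs5 of the 6 lost their calls (adjusted p 0.0996, 0.181, 0.117 and 0.0521), and each of Acta2, Col1a1 and Col3a1 was also lost without further single libraries (8, 9 and 6 libraries in all). Of the other lists, 18 exocrine, 8 tested delta-cell, 8 Schwann-cell and 5 tested erythroid markers held no call with or without labelled KO replicate 4. The 11 alpha-cell and 7 PP-cell markers held none with all libraries; without replicate 4, 2 alpha-cell markers were lower, and 1 PP-cell marker was higher and 2 were lower. Of 8 tested duct markers Spp1 (1.77, adjusted p 0.00545) was higher, of 10 tested lymphocyte markers Cd79a (-1.40, adjusted p 0.0316) was lower, and of 15 macrophage and myeloid markers C1qa (-0.61, adjusted p 0.0176) was lower, each the 1 call of its list with or without replicate 4. Klrb1c, a natural killer cell receptor, and Slc4a1, the erythroid anion exchanger, held at most 3 counts in each of the 11 libraries. The part of vascular and stromal cells in the increases was not tested. The calls of C1qa (without KO 3 or 5, adjusted p 0.0512 to 0.057) and Cd79a (without control 1, 2, 3 or 5 or KO 2, 3 or 5, adjusted p 0.0523 to 0.101) were lost without 1 library.

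**Figure D5:**
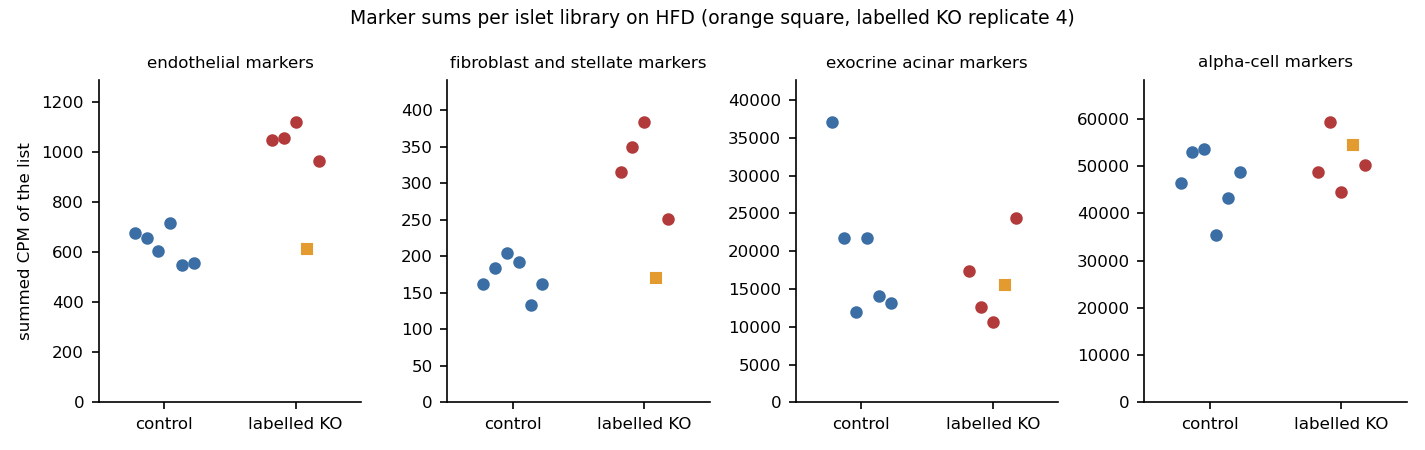
Summed CPM of 4 marker lists in each HFD islet library, on linear axes that start at 0. Points are libraries, blue for controls, red for labelled KO 1, 2, 3 and 5, and an orange square for labelled KO replicate 4. The endothelial and fibroblast sums of the 4 red points lie above every control, and the exocrine and alpha-cell sums overlap.

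On RFD, the comparison of 4 labelled-KO with 4 control libraries called 1298 genes (7.52% of 17254). Of these, 688 (3.99%) were higher, 610 (3.54%) lower and 474 (2.75%) at least 2-fold apart. Leaving out RFD control 1, 3 or 4 or labelled KO 2, 3 or 4 brought this to between 523 and 838 genes. These share no library with the HFD comparison, though both came from 1 fit. Of the 970 genes higher on HFD, 486 (50.1%) were also higher on RFD, which is 70.6% of those higher on RFD. Of the 682 lower on HFD, 367 (53.8%) were lower on RFD, or 60.2% of the RFD genes. Without labelled KO HFD replicate 4 the shared genes were 599 higher (34% of HFD and 87.4% of RFD) and 524 lower (32.6% and 86%). The RFD calls in that overlap were still those of the fit that holds replicate 4. The 2 sides thus rest on different estimates of the spread, and these shares are not set against those with all libraries. No gene was called in opposite directions.

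Several of the leading genes were called in the same direction on both diets, and others were called on HFD alone. On the log2 scale, Bcat1 changed by 6.11 (adjusted p 0.00377) on RFD, Aldh1a3 by 5.66 (adjusted p 0.00358), Gdf15 by 4.49 (adjusted p 0.00348), Slc2a2 by -1.47 (adjusted p 0.0137), Trpm5 by -3.43 (adjusted p 0.00882) and Ucn3 by -0.84 (adjusted p 0.00512). Of the largest decreases on HFD, Mgam had 0.35 (adjusted p 0.875) and Pigr 0.07 (adjusted p 0.968) on RFD. Slc5a10 and Arrdc4 were called on HFD and had 1.18 (adjusted p 0.421) and 0.54 (adjusted p 0.238) on RFD, the same direction without a call. The difference itself was tested as the interaction of genotype and diet. No gene passed by edgeR, with or without replicate 4. Its unadjusted p-values were below 0.05 for 406 genes (2.35%) and 532 genes (3.16%), less than the share expected if no gene had an interaction. DESeq2's Wald test called 20, all with the labelled-KO effect lower on HFD. The diets were therefore not shown to change the response of any single gene by the main test.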

How the data were processed

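RNA was measured by sequencing of islet libraries, 1 deposited table per library. Per the submitters' processing notes and the file headers, the authors' tables give raw read counts and TPM per Ensembl gene; STAR 2.6.1b, RSEM 1.3.1, featureCounts and DESeq2 are named with the build GRCm38, and which counter made the counts, its strand setting and any filter are not given in the sources used here. The deposited TPM values were used only to compare levels between genes, as group means. The files list 55487 genes, of which 55227 were matched to GENCODE M21 for symbols and positions.

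The deposited counts of all 19 Clec16a islet libraries were fitted together with edgeR 4.0.16 (R 4.3.3) as 4 group means, so that the groups share 1 estimate of the spread: filterByExpr, TMM, quasi-likelihood F-test, Benjamini-Hochberg over all genes tested, with calls at an adjusted p of 0.05. The same fit was run without labelled KO HFD replicate 4. SE is the log2 fold change divided by the square root of F. The 2 shares of counts were compared by exact two-sided permutation tests, adjusted over the 2. Alternatives were DESeq2 size factors, no filter, at least 10 counts in every library, the Wald test of DESeq2 1.42.0, a replicate block, the sequencing lane (read from the deposited files), the exocrine marker level, only the 2 groups, and each library left out. The script was tested on simulated counts for 16986 genes, drawn with the library sizes and spread of these data. It called 43.9% of 1.5-fold, 67.2% of 2-fold and 86.2% of 4-fold changes, and 2.99% of its calls were on unchanged genes. Few genes were changed, and in every labelled-KO HFD library alike. These rates therefore do not describe a group that holds a control-like library.

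The gene lists and members were chosen with earlier results of these data known, so counts over them are descriptions. Named genes were the targeted gene, up to 5 members per list by adjusted p, the 10 largest changes per direction with at least 4 of 5 labelled-KO libraries beyond all controls and 5 CPM or more on average on the higher side, the 8 smallest adjusted p per direction with all 5 beyond, and 3 per direction within 2 Mb of Clec16a. Further list members and markers were named after their values were seen. Some genes that the rule takes are not reported here. Libraries of 16235173 to 44399128 counts set the precision: genes with a few counts per control library carry fold changes that depend on the prior count. Whether replicates came from separate animals is given only as biological replicate, and p-values measure the spread between these libraries.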

Additional observations from a re-analysis of the deposited data

Results flagged for a closer look

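In a group of 4 to 10 libraries, a highest or lowest value was picked out when its gap to the nearest other was large against the whole range of the group. Of 90 groups, 19 were picked out. Chance picks out about 1 in 20 independent groups, but these are not independent: they share libraries, and many of the genes were named because at least 4 of 5 labelled-KO libraries lay beyond all controls, so nothing is read from the number.

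Labelled KO HFD replicate 4 accounts for 17 of the 19. Its median position between the control and labelled-KO means was -1.4%, and its Ins1 share of insulin counts was 28.94%. Among genes lower in the other labelled-KO libraries, it held 191 CPM of Trpm5, 278.7 of Fam151a, 145.8 of Abat, 82.91 of Cdhr1, 60.02 of Pard3, 36.14 of Cib3 and 32.11 of Nnat. It also held 20.58 CPM of Pigr, 19.2 of 2410021H03Rik, 15.9 of T2, 14.82 of Snn, 4.661 of Bambi-ps1 and 2.828 of Mslnl. Among genes higher in the others, it held 0.9689 CPM of Slc7a3 and 2.383 of Gm34225. The remaining picks were single control libraries, at 276.7 CPM of Fam151a and 42.12 CPM of Carhsp1.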

How the results depend on the processing

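The number of genes called on HFD ran from 786 (without labelled KO 3) to 3369 (without labelled KO 4) when 1 library was left out. The replicate number as a replicate block gave 975 calls, against 1652. Whether the numbers pair these libraries is not given in the sources used here. The correlation of deviations between same-numbered control and labelled-KO libraries ran from -0.05 to 0.3072 (median -0.0163, 5 pairs). For other pairs it ran from -0.2329 to 0.2667 (median -0.0094, 25 pairs). So few pairs cannot settle the question. Other settings gave 1144 (only the 2 groups) to 2128 (Wald test of DESeq2). Without labelled KO 4, leaving out a further library gave 2542 to 3395 and other settings 2762 to 3803. On RFD, leaving out 1 library gave 523 to 1224 calls. The interaction had 0 calls by edgeR under each alternative run and 20 by the Wald test. The Ins1 share difference was 0.7532 in lane 8 only. The cause of these differences was not tested.

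Of 169 single genes called, 105 were called under every alternative run, 62 lost the call without at least 1 library, and 0 of 256 genes reversed. Of 38 list medians, 4 moved by more than the pooled SD of the list between libraries under an alternative: secreted stress peptides to 1.41 with at least 10 counts in every library, EGF receptor genes to 0.000 with no filter, the clock to -0.375 without labelled KO 3, and the Clec16a mitophagy pathway to 0.027 with the replicate block and 0.028 without control 6. Few counts in controls limit the fold changes of Bcat1, Areg, Hrk, Mc5r, Slc7a11 and Gdf15.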
